A study of Arabidopsis thaliana with 27 samples.

Results

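The iron uptake and iron signalling genes described here are 10 of the 33039 genes in a deposited expression table of Arabidopsis thaliana seedlings. They were taken by gene ID, and all 10 were found. The members are IRT1 (AT4G19690), FRO2 (AT1G01580), FIT (AT2G28160), bHLH38 (AT3G56970), bHLH39 (AT3G56980), bHLH100 (AT2G41240), bHLH101 (AT5G04150), IMA1 (AT1G47400), IMA2 (AT1G47395) and FER1 (AT5G01600). The set was selected on the IRT1 level, which was low in 2 lines altered in EARLY FLOWERING 3 (ELF3) against wild type, to ask whether that fall belongs to an iron response. IRT1 is therefore described without a test wherever lines are set against wild type or temperatures against each other. The other 9 members were tested there. They too were chosen with earlier results of these data known, so their p-values are not independent of that choice.

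Messenger RNA of whole seedlings was sequenced in 27 libraries, 3 for each of 9 groups. The S364P line (genotype label ELF3S364P) and the insertion line (ELF3 T-insert) were each set against Columbia wild type (WT) at 16, 22 and 29 °C. Per the labels, both mutants are in the Columbia background and are named ELF3-16 and ELF3-101. Each is a lone line, so what it owes to ELF3 and what to other differences of that line cannot be told apart. ELF3 is a scaffold of the evening complex, a clock-controlled repressor whose activity drops with warmth. The protocol names 8, 16 and 24 h of Zeitgeber time side by side with 16, 22 and 29 °C. Read that way, temperature and time of day cannot be told apart, whereas lines compared at a given temperature share both. No soil, medium or iron supply is named in the labels.

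Arabidopsis takes up iron from soil by reduction. At the root surface the reductase FRO2 turns ferric into ferrous iron, and the transporter IRT1 carries the ferrous ion into epidermal cells. Both genes are activated by the root transcription factor FIT, which works as a pair with one of the subgroup Ib factors bHLH38, bHLH39, bHLH100 and bHLH101. The short IRON MAN peptides IMA1 and IMA2 act upstream, in leaves and roots, by relieving the degradation of the factors that switch on the Ib genes. In iron-deficient plants all of these transcripts are known to rise, while FER1, a plastid ferritin that stores iron, is known to rise with iron supply.

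The 4 Ib genes carry much of what follows, so their promoters are shown, each as the 250 bases before the annotated start, in transcript direction. They were matched by gene ID to RefSeq on TAIR10.1, while no source used here gives the build behind the expression table. The bHLH38 promoter lies at chr3:21085246-21085495 and that of bHLH39 at chr3:21087711-21087960. The bHLH100 promoter lies at chr2:17199455-17199704 and that of bHLH101 at chr5:1139634-1139883. All 4 are on the minus strand, and capitals mark CACGTG, the G-box, a hexamer bound by many bHLH and bZIP factors.
bHLH38: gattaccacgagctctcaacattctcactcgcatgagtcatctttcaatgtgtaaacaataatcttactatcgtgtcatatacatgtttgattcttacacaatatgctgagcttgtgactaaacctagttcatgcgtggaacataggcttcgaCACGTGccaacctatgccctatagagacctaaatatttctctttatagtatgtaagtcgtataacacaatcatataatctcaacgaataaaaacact
bHLH39: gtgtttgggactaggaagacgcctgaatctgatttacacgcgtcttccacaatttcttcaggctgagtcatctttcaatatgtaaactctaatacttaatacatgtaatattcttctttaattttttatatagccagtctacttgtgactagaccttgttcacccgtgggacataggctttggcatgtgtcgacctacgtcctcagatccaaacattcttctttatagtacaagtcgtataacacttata
bHLH100: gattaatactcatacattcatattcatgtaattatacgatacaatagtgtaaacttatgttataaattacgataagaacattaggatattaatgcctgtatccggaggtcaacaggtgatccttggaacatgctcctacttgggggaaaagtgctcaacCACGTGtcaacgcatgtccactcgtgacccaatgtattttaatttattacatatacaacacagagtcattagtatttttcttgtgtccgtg
bHLH101: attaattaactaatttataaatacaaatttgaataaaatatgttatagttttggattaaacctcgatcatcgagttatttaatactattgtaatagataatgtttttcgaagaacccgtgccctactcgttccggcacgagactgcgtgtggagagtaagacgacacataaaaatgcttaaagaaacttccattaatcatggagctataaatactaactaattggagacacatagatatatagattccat

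CACGTG, which reads the same on both strands, was found in the promoters of bHLH38 and bHLH100, with its first base 97 and 91 bases before the start. These are 2 of the 10 members, and 6.49% of 27442 promoters of the same length hold it. GATACG and GATTCG, forms of the site bound by LUX, the DNA-binding partner of ELF3, were searched on both strands. Neither was found in these windows of the 10 members, while 4.60% and 7.88% of all promoters hold them. bHLH38 and bHLH39 are neighbours with no coding gene between them, as are IMA2 and IMA1. The longest identical stretch was 34 bases within the Ib pair and 59 bases within the IMA pair. Reads shared by such copies could be split between them, so values within a pair are uncertain.

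Values are TPM, a transcript level scaled to length and to a fixed library total, so levels can be set side by side between genes. TPM keeps no sequencing depth, and the precision of low values is therefore unknown. Differences are on the log2(TPM + 1) scale with the standard error (SE) of a limma fit over all 27 libraries, which understates the change of genes below a few TPM. A gene is said to rise or fall at a limma adjusted p under 0.05 over 21396 tested genes. All 10 members passed the filter of at least 1 TPM in at least 3 libraries. For each of them at least 1 library reached 1 TPM in every wild-type group. The labels do not tie replicates to separate plants or cultures, so p-values measure the spread of these libraries, and part of it may be technical. ELF3 itself was at 29.5 to 72.0 TPM in the S364P line, 30.5 to 41.9 TPM in the insertion line and 18.1 to 41.6 TPM in wild type. A gene-level value does not show whether the insertion line makes a full transcript. IRT1, FRO2 and FIT are root genes in a whole-seedling sample, and fewer cells of a type and less RNA per cell cannot be told apart. For that reason the levels of 19 root marker genes are given below as a score, the mean of their log2(TPM + 1).

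IRT1, the iron importer, was at 18.2, 5.7 and 7.04 TPM in the S364P line at 22 °C. The insertion line had 15.1, 8.11 and 7.06 TPM, and wild type had 200.1, 48.2 and 116 TPM. Every library of both lines was below every wild-type library, and the means were 11.7-fold lower in the S364P line and 12.0-fold lower in the insertion line. At 29 °C IRT1 was at 10.7, 1.83 and 2.29 TPM in the S364P line and at 2.11, 14.7 and 5.32 TPM in the insertion line. Wild type had 66.1, 22.2 and 32.2 TPM, again without overlap, and the means were 8.12-fold lower in the S364P line and 5.45-fold lower in the insertion line. At 16 °C the order was the other way. IRT1 was at 100.1, 112 and 135 TPM in the S364P line, at 103, 103 and 132 TPM in the insertion line and at 72.0, 70.9 and 99.3 TPM in wild type. On the log2 scale the untested differences of the S364P line from wild type were 0.52, -3.37 and -2.96 at 16, 22 and 29 °C. Those of the insertion line were 0.49, -3.31 and -2.46.

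Ordered by mean IRT1 level, the groups ran from wild type at 22 °C (121 ± 76.1 TPM, SD, n = 3) through the S364P line (116 ± 17.5 TPM) and the insertion line (113 ± 16.9 TPM) at 16 °C to wild type at 16 °C (80.7 ± 16.1 TPM). Wild type at 29 °C came next with 40.2 ± 23.0 TPM. The S364P and insertion lines at 22 °C followed with 10.3 ± 6.88 and 10.1 ± 4.35 TPM, then the insertion line (7.38 ± 6.54 TPM) and the S364P line (4.95 ± 5.01 TPM) at 29 °C. The wild-type libraries at 22 °C spread 4.15-fold and spanned the ranges of all 3 groups at 16 °C. At 16 °C the ranges of the S364P and the insertion line overlapped, and both lay above that of wild type, which in turn lay above wild type at 29 °C. The 4 lowest groups also overlapped with one another. Their highest library, at 18.2 TPM, lay below the lowest library of any other group, at 22.2 TPM.

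**Figure D1:**
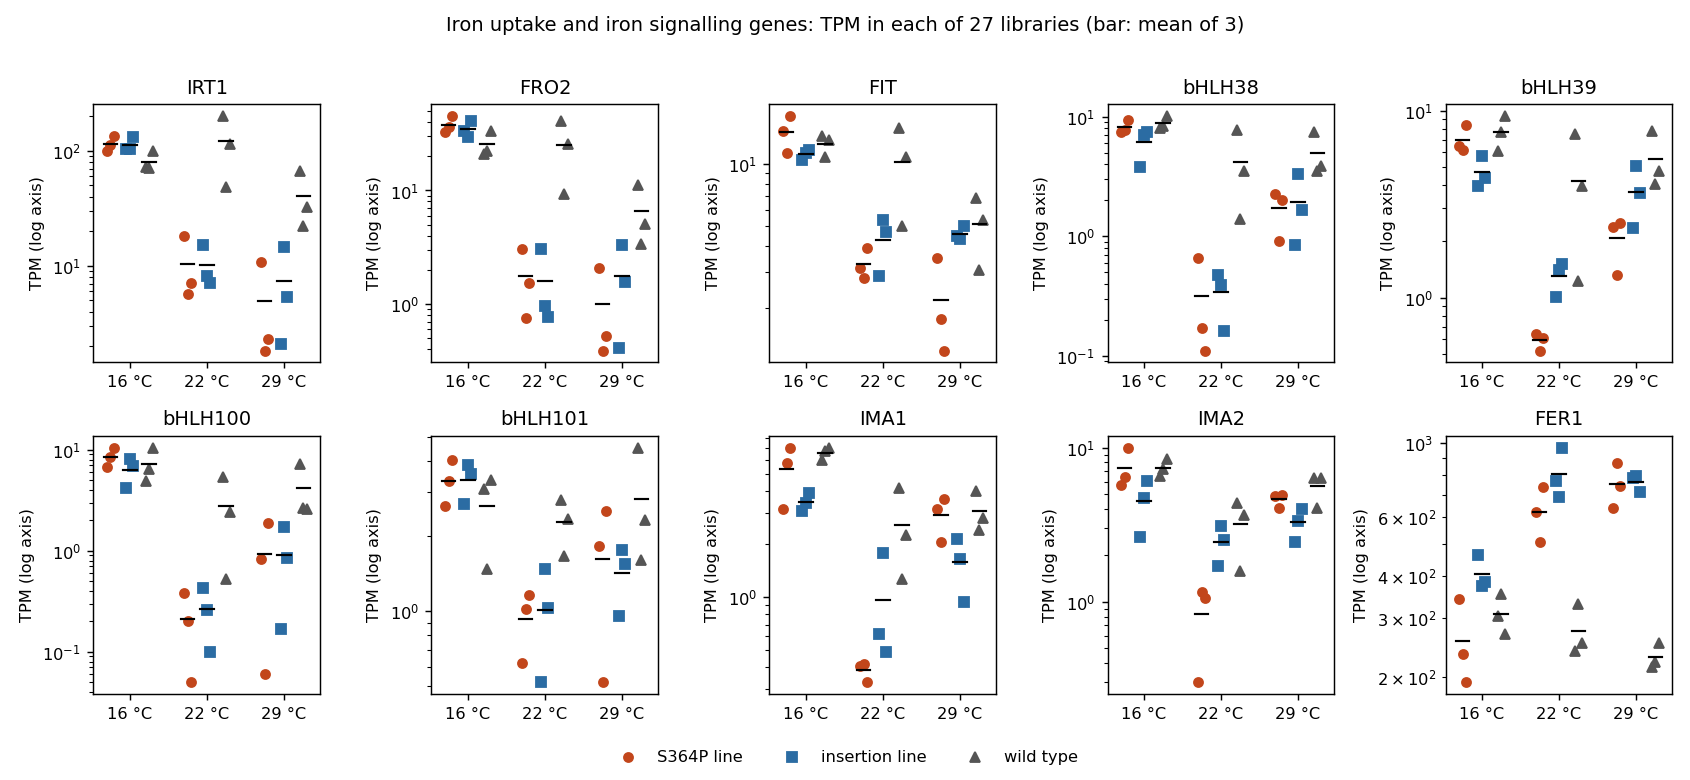
TPM of each member in each of the 27 libraries (log axis), by temperature on the horizontal axis, with the S364P line, the insertion line and wild type side by side and a bar at the mean of 3 libraries. At 22 °C IRT1 is at 5.7 to 18.2 TPM in the S364P line and 7.06 to 15.1 TPM in the insertion line, against 48.2 to 200.1 TPM in wild type, while FER1 lies above wild type in both lines.

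FRO2, the reductase that works beside IRT1, was tested and fell in both lines at 22 and 29 °C. At 22 °C it was at 3.06, 0.75 and 1.53 TPM in the S364P line and 3.07, 0.97 and 0.77 TPM in the insertion line. Wild type had 40.6, 9.32 and 25.5 TPM, above every library of the lines. The difference from wild type was -3.10 ± 0.48 in the S364P line (limma adjusted p = 3.3e-05) and -3.22 ± 0.48 in the insertion line (adjusted p = 1.2e-05). At 29 °C FRO2 was at 2.1, 0.39 and 0.53 TPM in the S364P line, at 0.41, 3.32 and 1.57 TPM in the insertion line and at 11.3, 3.41 and 5.09 TPM in wild type. The groups did not overlap, although the highest insertion-line library was only just below the lowest wild-type library. The differences were -1.88 ± 0.48 (S364P line, limma adjusted p = 0.0038) and -1.47 ± 0.48 (insertion line, adjusted p = 0.020). At 16 °C FRO2 averaged 38.0 ± 6.33 TPM in the S364P line, 34.5 ± 5.57 TPM in the insertion line and 25.6 ± 7.01 TPM in wild type. These ranges overlapped, and neither difference passed the test.

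FIT, the master regulator of both uptake genes, fell in both lines at 22 °C and in the S364P line at 29 °C. At 22 °C it was at 3.12, 2.78 and 3.9 TPM in the S364P line, at 2.86, 5.32 and 4.67 TPM in the insertion line and at 14.8, 4.99 and 10.8 TPM in wild type. The S364P libraries were all below wild type, while 1 insertion-line library lay above the lowest wild-type library. FIT fell by 1.29 ± 0.29 in the S364P line (limma adjusted p = 0.0014) and by 1.01 ± 0.29 in the insertion line (adjusted p = 0.0076). At 29 °C it was at 3.51, 1.77 and 1.24 TPM in the S364P line, at 4.44, 4.31 and 5.01 TPM in the insertion line and at 6.86, 3.06 and 5.34 TPM in wild type. The S364P line was lower by -0.95 ± 0.29 (adjusted p = 0.013). The insertion line differed from wild type by -0.07 ± 0.29 (95% interval -0.68 to 0.53, limma adjusted p = 0.88). IRT1 and FRO2 were low in the same libraries, and how their levels relate to that of FIT was not tested.

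Among the Ib partners of FIT, bHLH38 was at 0.66, 0.17 and 0.11 TPM in the S364P line at 22 °C. The insertion line had 0.47, 0.39 and 0.16 TPM and wild type 7.69, 1.38 and 3.49 TPM, without overlap. It fell in both lines, by 1.81 ± 0.36 in the S364P line (limma adjusted p = 0.00051) and by 1.76 ± 0.36 in the insertion line (adjusted p = 0.00042). Its neighbour bHLH39 was at 0.64, 0.52 and 0.61 TPM in the S364P line, at 1.01, 1.41 and 1.51 TPM in the insertion line and at 7.5, 1.22 and 3.98 TPM in wild type. The lowest wild-type library of bHLH39 lay within the range of the insertion line and above that of the S364P line. bHLH39 fell by 1.52 ± 0.32 in the S364P line (adjusted p = 0.00091) and by 0.98 ± 0.32 in the insertion line (adjusted p = 0.018).

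bHLH100 was at 0.38, 0.2 and 0.05 TPM in the S364P line and at 0.43, 0.26 and 0.1 TPM in the insertion line at 22 °C. Wild type had 5.44, 0.53 and 2.45 TPM, so its lowest library was close to the lines. The differences of -1.43 ± 0.44 (S364P line, limma adjusted p = 0.014) and -1.37 ± 0.44 (insertion line, adjusted p = 0.015) passed the test. bHLH101 moved least of the 4 at 22 °C, with means of 0.933 TPM in the S364P line, 1.01 TPM in the insertion line and 2.27 TPM in wild type. Its difference was -0.75 ± 0.29 in the S364P line (adjusted p = 0.048) and -0.72 ± 0.29 in the insertion line, which did not pass (adjusted p = 0.054).

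At 29 °C bHLH38 was at 2.25, 0.91 and 2.02 TPM in the S364P line and 0.84, 3.28 and 1.67 TPM in the insertion line, against 7.47, 3.54 and 3.89 TPM in wild type. bHLH100 was at 0.83, 0.06 and 1.87 TPM in the S364P line and 0.17, 1.72 and 0.85 TPM in the insertion line, against 7.2, 2.64 and 2.59 TPM in wild type. Both genes were below wild type in every library of both lines. bHLH38 fell by 1.11 ± 0.36 in the S364P line (limma adjusted p = 0.020) and by 1.05 ± 0.36 in the insertion line (adjusted p = 0.026). bHLH100 fell by 1.42 ± 0.44 in the S364P line (adjusted p = 0.014) and by 1.40 ± 0.44 in the insertion line (adjusted p = 0.015). bHLH39 fell in the S364P line, by 1.07 ± 0.32 (adjusted p = 0.012), and was at -0.49 ± 0.32 in the insertion line (adjusted p = 0.26). bHLH101 did not pass in either line, with -0.56 ± 0.29 in the S364P line (adjusted p = 0.14) and -0.60 ± 0.29 in the insertion line (adjusted p = 0.11). At 16 °C no Ib gene passed the test in either line. In the insertion line bHLH38 (3.79 to 7.45 TPM) lay below wild type (7.96 to 10.1 TPM) in every library. So did bHLH39 (3.97 to 5.73 against 6.08 to 9.36 TPM). Their differences were -0.51 ± 0.36 (limma adjusted p = 0.34) and -0.61 ± 0.32 (adjusted p = 0.18). Ranges of bHLH100 and bHLH101, and all Ib ranges of the S364P line, overlapped wild type.

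Of the genes for the IMA peptides, which signal iron shortage, IMA1 fell in both lines and IMA2 in the S364P line at 22 °C. IMA1 was at 0.41, 0.42 and 0.33 TPM in the S364P line at 22 °C, at 0.62, 1.78 and 0.49 TPM in the insertion line and at 4.17, 1.26 and 2.24 TPM in wild type. It fell by 1.28 ± 0.28 in the S364P line (limma adjusted p = 0.0010) and by 0.83 ± 0.28 in the insertion line (adjusted p = 0.019), where 1 library overlapped wild type. IMA2 was at 0.3, 1.15 and 1.05 TPM in the S364P line, at 1.7, 3.1 and 2.51 TPM in the insertion line and at 4.34, 1.59 and 3.63 TPM in wild type. IMA2 fell in the S364P line, by 1.16 ± 0.27 (adjusted p = 0.0021), and was at -0.24 ± 0.27 in the insertion line (adjusted p = 0.51). At 29 °C neither peptide gene passed in either line. In the S364P line IMA1 averaged 2.93 TPM and IMA2 4.60 TPM, against 3.07 and 5.59 TPM in wild type, with differences of -0.05 ± 0.28 and -0.22 ± 0.27. In the insertion line IMA1 averaged 1.57 TPM and IMA2 3.27 TPM, with differences of -0.67 ± 0.28 (adjusted p = 0.062) and -0.62 ± 0.27 (adjusted p = 0.079). At 16 °C IMA2 did not pass in either line. In the insertion line it was at 2.64, 4.71 and 6.07 TPM, below the 6.56, 7.24 and 8.45 TPM of wild type. The difference was -0.67 ± 0.27 (limma adjusted p = 0.078). IMA1 was at 3.07, 3.43 and 3.88 TPM in the insertion line at 16 °C, below the 5.96, 6.73 and 7.02 TPM of wild type. It fell there by 0.76 ± 0.28 (adjusted p = 0.045), a call that ended when any of the 6 libraries was left out, with a pseudocount of 0.1 TPM, without a filter and under the replicate block.

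FER1, the iron store, differed from wild type in the direction opposite to IRT1 and FRO2 in both lines at 22 and 29 °C. At 22 °C it was at 620.2, 505 and 740 TPM in the S364P line, at 770.2, 689 and 969 TPM in the insertion line and at 238, 330 and 252 TPM in wild type. At 29 °C it was at 638, 873 and 744 TPM in the S364P line, at 788, 797 and 713 TPM in the insertion line and at 213, 221 and 252 TPM in wild type. Every library of both lines was above every wild-type library at these temperatures. FER1 rose by 1.18 ± 0.18 in the S364P line (limma adjusted p = 2.9e-05) and by 1.56 ± 0.18 in the insertion line (adjusted p = 3.6e-07) at 22 °C. At 29 °C it rose by 1.71 ± 0.18 in the S364P line (adjusted p = 1.4e-07) and by 1.74 ± 0.18 in the insertion line (adjusted p = 9.3e-08). The means were 2.27-fold and 2.96-fold of wild type at 22 °C, and 3.29-fold and 3.35-fold at 29 °C, in the S364P and the insertion line in that order. At 16 °C FER1 was at 341, 233 and 193 TPM in the S364P line and at 463, 373 and 385 TPM in the insertion line, against 303, 353 and 268 TPM in wild type. Neither difference passed there (S364P line -0.30 ± 0.18, limma adjusted p = 0.75, and insertion line 0.40 ± 0.18, adjusted p = 0.11). In the insertion line at 16 °C both FER1 and IRT1 were above wild type in every library, so they did not move oppositely there.

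**Figure D2:**
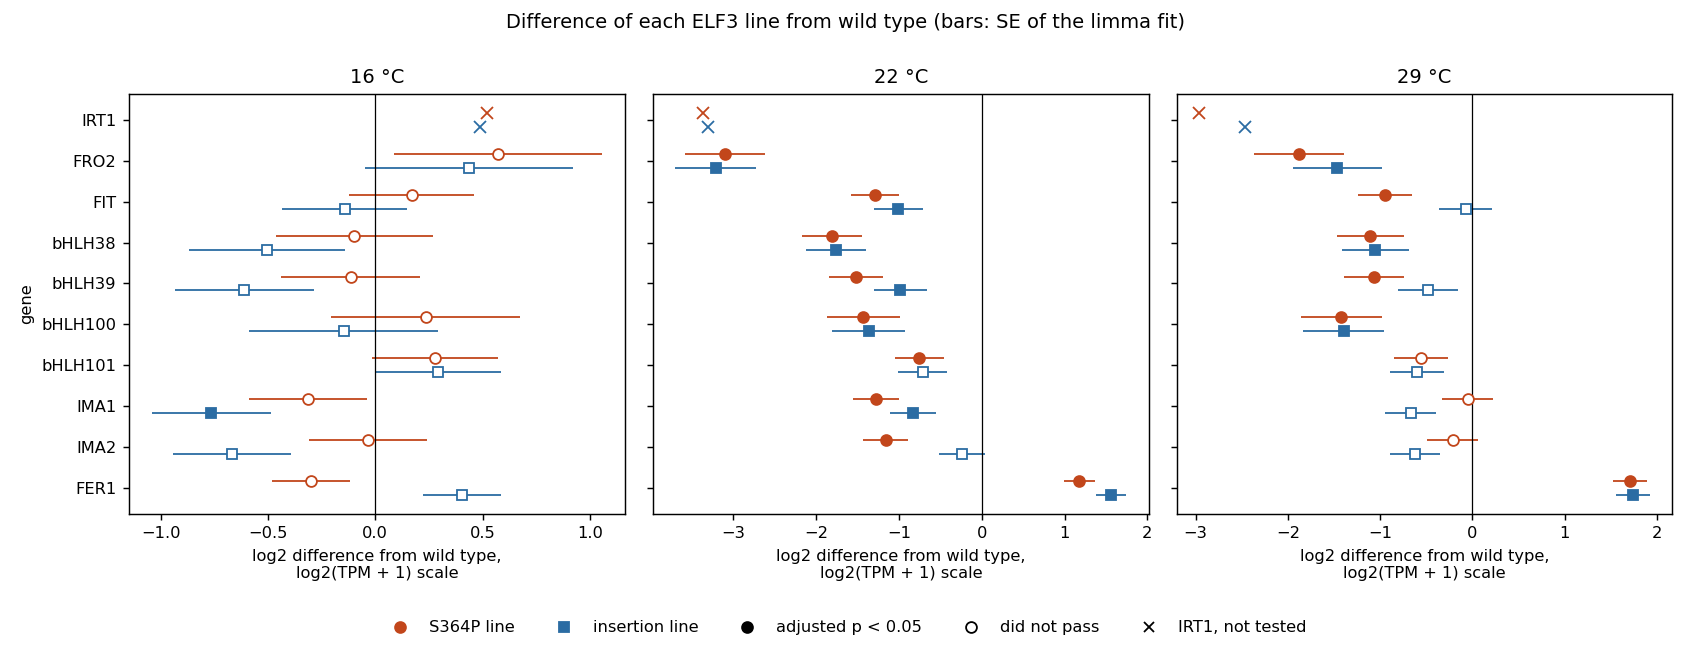
Difference of the S364P line and the insertion line from wild type on the log2(TPM + 1) scale (horizontal axis), for each member at 16, 22 and 29 °C, with bars for the SE of the limma fit. Filled symbols passed adjusted p < 0.05, open symbols did not, and crosses mark IRT1, which was not tested. At 22 °C FRO2 stands at -3.10 and -3.22 and FER1 at 1.18 and 1.56.

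Counted over the 9 members tested, 8 fell and 1 rose in the S364P line at 22 °C. Of all genes tested, 37.1% were called there in either direction, and 19.9% as lower. The insertion line at 22 °C had 6 members lower and 1 higher, against 42.9% of all genes called and 18.4% called lower. At 29 °C 5 fell and 1 rose in the S364P line, against 38.3% of all genes called and 13.7% called lower. There 3 fell and 1 rose in the insertion line, against 38.3% called and 13.5% called lower. Under median-of-ratios scaling the shares called lower at 29 °C were 17.7% in the S364P line and 18% in the insertion line, and no called member changed direction under that or quantile scaling. At 16 °C no member passed in the S364P line, 0 also at an unadjusted p under 0.05, where 1.45% of all genes were called. In the insertion line 1 member passed at 16 °C (3 at an unadjusted p under 0.05), against 26.2% of all genes. All 9 members had library ranges apart from wild type in the S364P line at 22 °C, as had 49.3% of all genes. In the S364P line 0 did so at 16 °C and 5 at 29 °C. In the insertion line 5, 5 and 6 did so at 16, 22 and 29 °C. The share of all genes is not given for these 5 comparisons, so nothing is read from them. The median difference of the 9 members was -1.29 in the S364P line and -0.98 in the insertion line at 22 °C, against -0.03 and 0.02 over all genes. At 29 °C it was -0.95 and -0.62, against 0.07 and 0.09. Both lines were set against the same wild-type libraries, so their counts are not separate evidence.

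These counts rest on few libraries, above all on wild-type replicate 1, the highest of its group at 22 and 29 °C for each of the members but FER1 and, at 29 °C, IMA2. Without it, FRO2 and FER1 alone passed in the S364P line at 29 °C (2 of 9), and FER1 alone in the insertion line (1 of 9). At 22 °C, without it, 7 members passed in the S364P line and 3 in the insertion line, where these were FRO2, bHLH38 and FER1. Without insertion-line replicate 1, 4 members passed at 22 °C and 2 at 29 °C. Without S364P replicate 2, 3 members passed at 29 °C.

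Root marker levels moved with part of this pattern. At 22 °C the root score was 2.13 to 2.66 in the S364P line and 2.44 to 3.16 in the insertion line, against 2.76 to 3.43 in wild type. At 29 °C it was 2.04 to 2.98 in the S364P line, 2.95 to 3.24 in the insertion line and 2.58 to 3.25 in wild type. At 16 °C it was 3.18 to 3.38, 3.17 to 3.44 and 3.23 to 3.33 in the same order. In the S364P line 9 of 19 markers were called lower and 0 higher at 22 °C, against 19.9% of all genes called lower. At 29 °C 3 were lower and 0 higher, against 13.7%, and the ranges of the score overlapped. The insertion line had 2 markers called lower and 1 higher at 22 °C and 0 in either direction at 29 °C, against 18.4% and 13.5% of all genes called lower. These counts were 11 at 29 °C without S364P replicate 1, 9 without wild-type replicate 2 and 8 under median-of-ratios scaling, all for the S364P line, and 7 at 22 °C without insertion-line replicate 2. At 29 °C the insertion line's mean score of 3.05 was above the wild-type 2.90, and IRT1 and FRO2 were low in the same libraries. The score weighs all markers alike. Summed over the 19 markers, TPM was 2020 to 2389 in the insertion line at 29 °C, against 2322 to 3048 in wild type. Without the marker PYK10 the sums were 164 to 208 and 107 to 197. The cause of the low IRT1 and FRO2 was not tested. At most 1 of the 19 root markers was at 0 TPM in any library.

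With the root score added to the fit as a covariate, not centred within groups, 7 of 9 members passed in each line at 22 °C. At 29 °C 2 passed in the S364P line (FRO2 and FER1) and 7 in the insertion line. IRT1 was then at -2.41 and -2.17 in the S364P line and at -2.86 and -2.68 in the insertion line, at 22 and 29 °C. Root markers were also higher in wild-type replicate 1, with a score of 3.43 at 22 °C and 3.25 at 29 °C, where IRT1 was at its highest of the group. In the S364P line at 29 °C replicate 1 had a score of 2.98, against 2.11 and 2.04 in the others, and 10.7 TPM of IRT1, against 1.83 and 2.29 TPM.

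**Figure D3:**
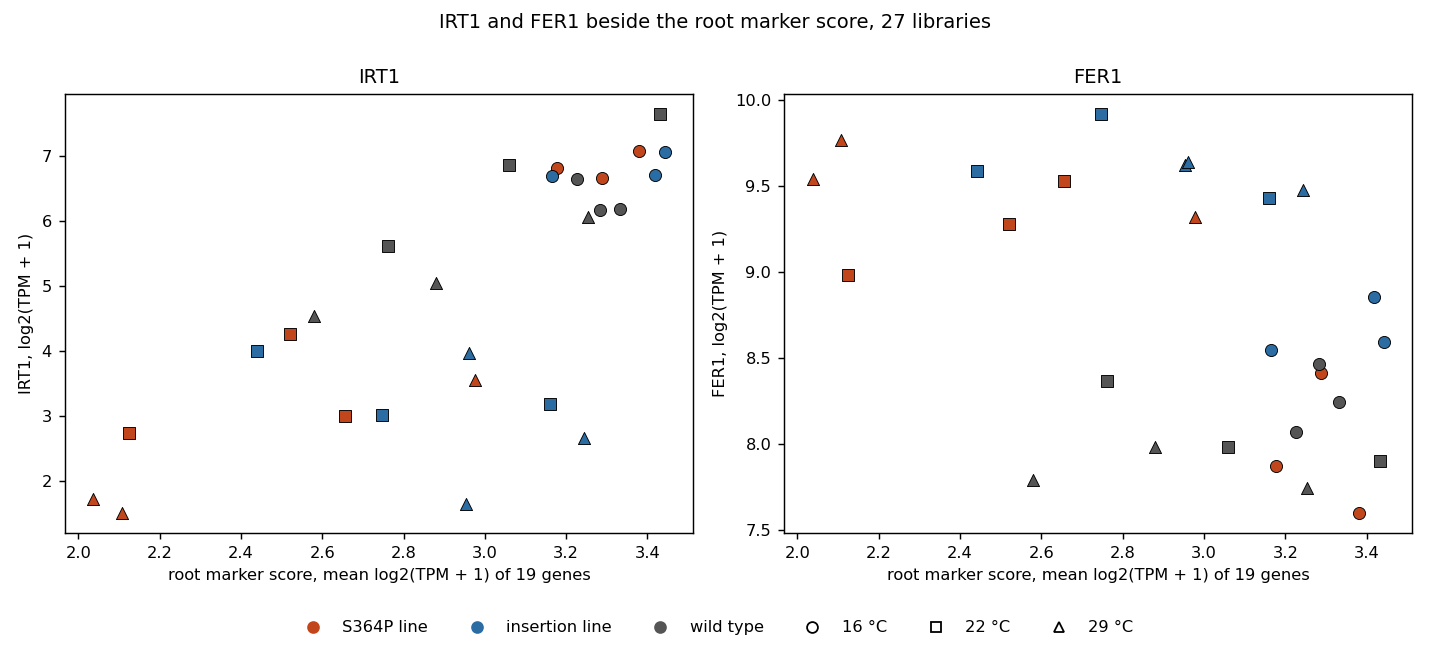
log2(TPM + 1) of IRT1 (left) and FER1 (right) against the root marker score, the mean log2(TPM + 1) of 19 root marker genes, with 1 point per library, colour for the line and shape for the temperature. At 29 °C the insertion-line libraries have root scores of 2.95 to 3.24, within or near the wild-type 2.58 to 3.25, with IRT1 at 2.11 to 14.7 TPM against 22.2 to 66.1 TPM.

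Whether the line's difference itself changed with temperature was tested as an interaction. Between 16 and 22 °C the S364P difference from wild type became lower for FRO2 (-3.68 ± 0.69, limma adjusted p = 0.00081), FIT (-1.46 ± 0.41, adjusted p = 0.020), bHLH38 (-1.71 ± 0.51, adjusted p = 0.029) and bHLH39 (-1.40 ± 0.46, adjusted p = 0.044). It became higher for FER1 (1.48 ± 0.26, adjusted p = 0.00041). These are 5 of 9 members, against 14.1% of all genes. Without wild-type replicate 1 at 22 °C, FRO2 and FER1 alone still passed (2 of 9). Leaving out S364P replicate 3 or wild-type replicate 2 at 16 °C also gave 2, wild-type replicate 1 at 16 °C, S364P replicates 2 or 3 at 22 °C or wild-type replicate 3 at 22 °C gave 3, and wild-type replicate 2 at 22 °C gave 8. In the insertion line 2 of 9 passed (4 without wild-type replicate 2 at 22 °C), against 9.82% of all genes. FRO2 became lower there by -3.65 ± 0.69 (adjusted p = 0.0013) and FER1 higher by 1.16 ± 0.26 (adjusted p = 0.0055). Between 22 and 29 °C IMA1 alone passed in the S364P line, with 1.23 ± 0.39 (adjusted p = 0.033), against 17.4% of all genes. That call ended when any of 9 of the 12 libraries was left out, with a pseudocount of 5 TPM, in a fit of these groups only and under the replicate block. No member passed in the insertion line by limma (2 at an unadjusted p under 0.05), against 17.8% of all genes. There 2 passed without wild-type replicate 2 at 22 °C, and 1 without replicate 1 at 29 °C of wild type or of the insertion line. IRT1 was at -3.89 and -3.80 between 16 and 22 °C in the S364P and the insertion line, untested.

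Within each line the members were then followed over temperature. At 22 against 16 °C 8 of the 9 tested members fell and FER1 rose in the S364P line, where 55.2% of all genes were called and 22.1% were lower (29.7% under median-of-ratios scaling). IRT1 differed by -3.52, untested. On the log2(TPM + 1) scale FRO2 fell the furthest of the tested members (-3.88 ± 0.48, limma adjusted p = 6.6e-07). After it came bHLH100 (-2.96 ± 0.44), bHLH38 (-2.82 ± 0.36), bHLH39 (-2.32 ± 0.32) and IMA2 (-2.19 ± 0.27). By mean TPM the order differed, with bHLH100 40.4-fold, bHLH38 26.1-fold, FRO2 21.4-fold, IMA1 13.7-fold, bHLH39 11.9-fold and IMA2 8.85-fold lower. The 22 °C means of bHLH100 and bHLH38 were only 0.21 and 0.31 TPM. The insertion line had 7 of 9 members lower and FER1 higher, with IRT1 at -3.42, untested, against 48.3% of all genes called and 17.3% lower (24.8% under median-of-ratios scaling). IMA2, at -0.64 ± 0.27 (adjusted p = 0.059), did not pass.

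In wild type, 5 signalling genes were lower at 22 than at 16 °C, where the listed time of day also differs. At 22 against 16 °C bHLH38 (-1.11 ± 0.36), bHLH39 (-0.92 ± 0.32), bHLH100 (-1.30 ± 0.44), IMA1 (-1.17 ± 0.28) and IMA2 (-1.07 ± 0.27) fell, with limma adjusted p of 0.0020 to 0.029. Against these 5 of 9, 38.2% of all genes were called and 11.7% were lower (18.8% under median-of-ratios scaling). Library ranges overlapped for bHLH39 and bHLH100. FIT (-0.37 ± 0.29, limma adjusted p = 0.35) and bHLH101 (-0.13 ± 0.29, adjusted p = 0.78) did not pass. FRO2 was at -0.21 ± 0.48 (95% interval -1.22 to 0.80) and FER1 at -0.18 ± 0.18 (-0.56 to 0.20), and neither passed. IRT1 was at 0.38, untested. Without wild-type replicate 3 at 16 °C, or without replicate 2 at 22 °C, 2 members passed.

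At 29 against 22 °C 2 of 9 members fell in wild type, FRO2 by 1.70 ± 0.48 (limma adjusted p = 0.0081) and FIT by 0.82 ± 0.29 (adjusted p = 0.030), against 9.05% of all genes called lower. IRT1 differed by -1.49, untested. IMA2 rose by 0.70 ± 0.27 (adjusted p = 0.049), a call that ended under median-of-ratios and quantile scaling, and 37.8% of all genes were called. The ranges of the libraries overlapped for each of these genes, and 1 or 2 members passed when a wild-type library was left out. Without wild-type replicate 1 at 22 °C 0 members fell and 2 rose, without replicate 3 at 22 °C 1 fell and 0 rose, without replicate 2 at 29 °C 0 fell and 1 rose, and without replicate 3 at 29 °C 2 fell and 0 rose. In the lines neither FRO2 nor FIT passed at this step, and bHLH100, bHLH101 and FER1 did not either. The S364P line had higher bHLH38 (1.04 ± 0.36), bHLH39 (0.93 ± 0.32), IMA1 (1.48 ± 0.28) and IMA2 (1.64 ± 0.27), with adjusted p of 3.3e-05 to 0.020. These are 4 of 9 members, close to the 43.3% of all genes called higher (22.4% under median-of-ratios scaling), with 53.7% called in either direction. The insertion line had higher bHLH38 (1.05 ± 0.36) and bHLH39 (0.98 ± 0.32), 2 of 9, against 47.5% of all genes called and 37.9% higher (17.1% under median-of-ratios scaling), and 0 passed there under quantile scaling. The median of all genes at this step was 0.22 in the S364P line, 0.19 in the insertion line and 0.12 in wild type, and these values are not set off against it. Without insertion-line replicate 2 at 29 °C neither of its genes passed, and without its replicate 1 or 3 at 22 °C 1 member did. Without S364P replicate 2 at 22 °C or replicate 3 at 29 °C, 2 members of that line passed, and without replicate 1 at 29 °C 2 rose and 1 fell.

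The 2 lines were also compared with each other, over all 10 members. At 16 °C FER1 was lower in the S364P line than in the insertion line, by -0.70 ± 0.18 (limma adjusted p = 0.0078), and no other member passed, where 19.2% of all genes were called. That call ended without S364P replicate 3, in a fit of these groups only and under the replicate block. At 22 °C IMA2 was lower in the S364P line, by -0.92 ± 0.27 (adjusted p = 0.025), as the lone member called against 15.6% of all genes. It ended without S364P replicate 1 or insertion-line replicates 2 or 3, with a pseudocount of 5 TPM, in a fit of these groups only and with the root score not centred. At 29 °C no member was called by limma (2 at an unadjusted p under 0.05), where 1.0% of all genes were. FIT had the largest difference at 29 °C, -0.88 ± 0.29 (95% interval -1.48 to -0.27, adjusted p = 0.15), with the 3 S364P libraries below the 3 insertion-line libraries. For IRT1 the difference between the lines was -0.06 ± 0.58 at 22 °C, with a 95% interval of -1.28 to 1.15. At 29 °C it was -0.50 ± 0.58, with an interval of -1.71 to 0.71. These intervals are wide enough to hold a doubling in either direction at 22 °C, so the lines are not shown to be alike.

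Beyond the members, 12 genes of root iron acquisition, most of them known to depend on FIT, were read as a list. At 22 °C 8 fell and 0 rose in the S364P line, and 7 fell and 1 rose in the insertion line. At 29 °C 4 fell and 1 rose in the S364P line, and 2 fell and 2 rose in the insertion line. Of all genes, 37.1% were called in the S364P line and 42.9% in the insertion line at 22 °C, 19.9% and 18.4% as lower. At 29 °C 38.3% were called in each line, 13.7% and 13.5% as lower. The list medians at 22 °C were -0.90 in the S364P line and -0.69 in the insertion line, against -0.03 and 0.02 over all genes. CYP82C4, a coumarin hydroxylase of the iron-mobilising pathway, averaged 3.09 ± 2.35 TPM in the S364P line and 2.53 ± 2.26 TPM in the insertion line at 22 °C, against 60.1 ± 34.99 TPM in wild type (SD, n = 3 each). It fell by 3.85 ± 0.47 in the S364P line (limma adjusted p = 1.3e-06) and by 4.09 ± 0.47 in the insertion line (adjusted p = 2.9e-07). S8H, which makes fraxetin, fell by 2.38 ± 0.41 and 2.53 ± 0.41, and MTP3, a vacuolar zinc transporter of iron-deficient roots, by 1.73 ± 0.29 and 1.80 ± 0.29, in the same order. MYB10, a regulator that is induced by iron shortage, went the other way. It rose in the insertion line at 22 °C (1.16 ± 0.22, adjusted p = 0.00017) and 29 °C (0.89 ± 0.22, adjusted p = 0.0027) and in the S364P line at 29 °C (1.06 ± 0.22, adjusted p = 0.00055). At 29 °C this list had 2 calls in each line without wild-type replicate 1, 3 to 8 in the S364P line without one of its own libraries, and 1 in the insertion line without its replicate 1. At 22 °C the insertion line had 5 calls without its own or the wild-type replicate 1. At 16 °C 0 of the 12 passed in the S364P line, and S8H and MYB72 rose in the insertion line, against 1.45% and 26.2% of all genes called.

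Other iron regulators followed in part. Of 12 tested, 6 fell and 2 rose in the S364P line at 22 °C, and 8 fell and 3 rose in the insertion line. At 29 °C 6 fell and 1 rose in the S364P line, and 5 fell and 0 rose in the insertion line, where 3 genes of the list passed without wild-type replicate 1. All genes were called at 37.1% and 42.9% at 22 °C, 19.9% and 18.4% as lower, in the S364P and the insertion line. At 29 °C these shares were 38.3% in each line, 13.7% and 13.5% as lower. IMA3, the third IRON MAN gene, averaged 0.65 ± 0.34 TPM in the S364P line and 0.873 ± 0.42 TPM in the insertion line at 22 °C, against 8.24 ± 3.73 TPM in wild type. It fell by 2.41 ± 0.34 (S364P line, limma adjusted p = 9.6e-06) and 2.23 ± 0.34 (insertion line, adjusted p = 1.4e-05). It also fell at 29 °C, by 1.68 ± 0.34 and 1.99 ± 0.34, where IMA1 and IMA2 did not pass. bHLH34, of the subgroup IVc that activates the Ib genes, fell in both lines at 22 and 29 °C, and at 16 °C in the insertion line (-0.90 ± 0.12, adjusted p = 5.7e-06). BTSL1, a ubiquitin ligase that acts on FIT, fell by 1.27 ± 0.27 in the S364P line and by 1.29 ± 0.27 in the insertion line at 22 °C.

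Of 18 tested genes for chelation, transport and reduction of iron inside the plant, 9 fell and 3 rose in the S364P line at 22 °C, and 9 fell and 1 rose in the insertion line. NAS4, which makes the iron chelator nicotianamine, averaged 5.24 ± 0.90 TPM in the S364P line and 3.78 ± 0.35 TPM in the insertion line, against 19.7 ± 0.28 TPM in wild type. It fell by 1.74 ± 0.11 (S364P line, limma adjusted p = 3.2e-11) and by 2.12 ± 0.11 (insertion line, adjusted p = 4.5e-13). NAS1 fell by 2.45 ± 0.20 and 2.38 ± 0.20. FRD3, which loads citrate into the xylem for iron transport, fell by 1.25 ± 0.21 and 1.03 ± 0.21. Of all genes, 37.1% and 42.9% were called at 22 °C, 19.9% and 18.4% as lower, in the S364P and the insertion line. At 29 °C 9 fell and 5 rose in the S364P line, and 7 fell and 6 rose in the insertion line. Of all genes, 38.3% were called in each line at 29 °C, 13.7% and 13.5% as lower. FRO6, a ferric reductase of leaf cells, fell there by 1.01 ± 0.17 in the S364P line and by 1.56 ± 0.17 in the insertion line. At 16 °C 6 of these 18 fell in the insertion line, where 26.2% of all genes were called and 10.7% were lower, NAS4 by 1.36 ± 0.11 and OPT3, a phloem iron transporter, by 0.90 ± 0.12, and 0 changed in the S364P line.

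FER1 was not matched by every gene of iron storage. The other list of this kind held 7 genes, the remaining ferritins, vacuolar iron transporter-like genes and NEET. At 22 °C 2 rose and 3 fell in the S364P line, with 3 passing in all without its replicate 2 or without wild-type replicate 1, and 2 rose and 4 fell in the insertion line. At 29 °C 1 rose and 3 fell in the S364P line, and 1 rose and 2 fell in the insertion line. The shares of all genes called at 22 °C were 37.1% and 42.9%, 19.9% and 18.4% as lower, in the same order. At 29 °C they were 38.3% in each line, 13.7% and 13.5% as lower. FER3, another plastid ferritin, rose in the S364P line by 0.63 ± 0.11 at 22 °C (limma adjusted p = 0.00015) and by 0.30 ± 0.11 at 29 °C (adjusted p = 0.039), and in the insertion line by 0.77 ± 0.11 at 22 °C (adjusted p = 8.1e-06) and by 0.49 ± 0.11 at 29 °C (adjusted p = 0.0016). The 22 °C value of the insertion line was added after its value was seen. VTL5, a vacuolar iron transporter-like gene, fell. It averaged 37.9 ± 12.4 TPM in the S364P line and 43.4 ± 9.46 TPM in the insertion line at 29 °C, against 92.3 ± 27.1 TPM in wild type. NEET, an iron-sulphur protein, fell by 2.1 ± 0.17 (S364P line, adjusted p = 2.1e-09) and by 2.23 ± 0.17 (insertion line, adjusted p = 7.5e-10) at 29 °C. It also fell in the insertion line at 16 °C, by 1.61 ± 0.17 (adjusted p = 1.9e-07).

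Zinc and copper genes were read as lists too. Of 6 tested zinc deficiency genes, 0 rose and 1 fell in the S364P line at 22 °C, and 1 rose and 0 fell in the insertion line. Of 8 copper economy genes, 0 rose and 3 fell in the S364P line at 22 °C, and 2 rose and 3 fell in the insertion line. Without wild-type replicate 1 the copper calls were 1 in the S364P line and 3 in the insertion line, and each zinc count changed with several libraries. COPT2, a root copper importer that iron shortage also induces, fell by 1.34 ± 0.24 (S364P line, limma adjusted p = 0.00015) and by 1.37 ± 0.24 (insertion line, adjusted p = 7.0e-05). All lists of other genes were set against the backgrounds given above, 37.1% to 42.9% of all genes called at 22 °C and 38.3% at 29 °C in each line, and nothing is read from a list as particular to iron.

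**Figure D4:**
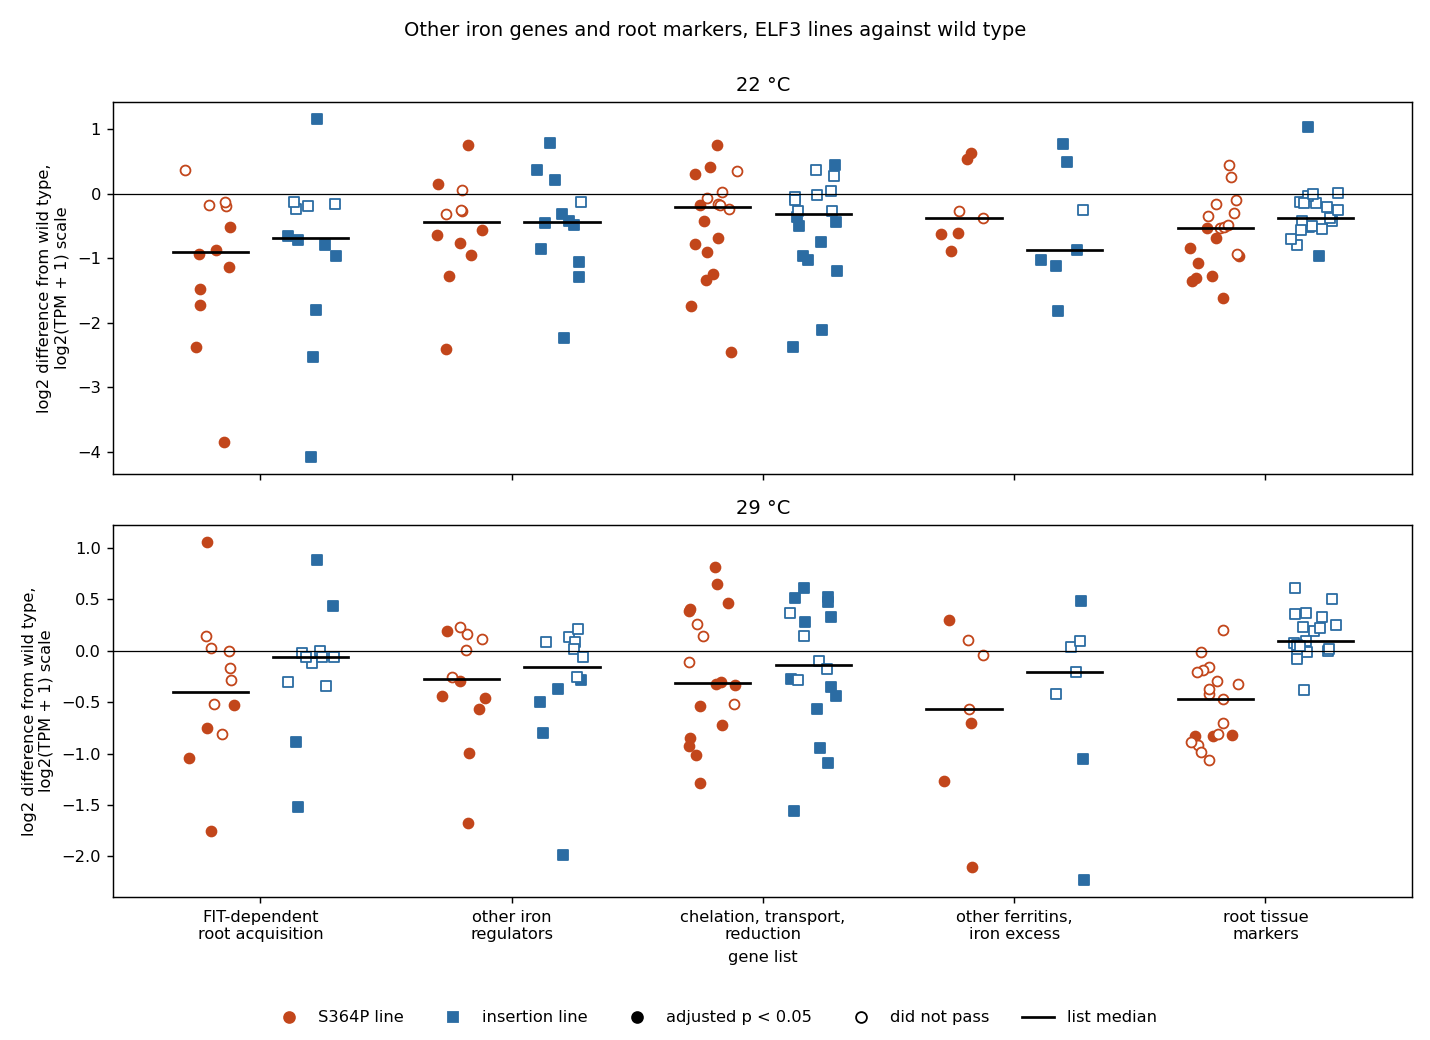
Difference from wild type on the log2(TPM + 1) scale (vertical axis) of every tested gene in 4 iron gene lists and the root marker list, for the S364P line and the insertion line at 22 °C (top) and 29 °C (bottom). Filled symbols passed limma adjusted p < 0.05, open symbols did not, and the bar is the list median, which for FIT-dependent genes at 22 °C is -0.90 in the S364P line and -0.69 in the insertion line.

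Over the 27 libraries the genes whose log2(TPM + 1) ran most like a member were taken by Pearson's r from the 15215 genes that average 5 TPM or more. These are descriptions over libraries that share the same 9 groups. FRO2 was the most like IRT1 (r = 0.978), followed by CYP82C4 (0.957), AT1G74770, which is BTSL1 (0.953), PP2-A8 (0.952) and AT2G21100 (0.952). For FIT the most alike were AT3G13610, which is the coumarin enzyme F6'H1 (r = 0.956), AT3G23190 (0.950), PPC3 (0.947), COPT2 (0.946) and AT4G08400 (0.943). bHLH39 was matched by AT5G05250 (r = 0.932), AT2G36290 (0.877), AT1G02810 (0.874), RAX2 (0.867) and OPT3 (0.865). FER1 was matched by BLH4 (r = 0.920), AFP3 (0.919), AT5G24580 (0.910), MEF14 (0.909) and AT5G25170 (0.907), none of which is in the iron lists.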

How the data were processed

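The deposited table gives TPM for 33039 genes in 27 libraries, computed by the authors, per the file headers. The sources used here name no quantifier, aligner or genome build. TPM keeps no depth, so depth and counting precision are unknown. 1 table line without values is not analysed here. In the insertion line at 16 °C, 2 columns carry numbers that differ from those of titles and descriptions, so they are tied to the group alone.

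Values were analysed as log2(TPM + 1). The 21396 genes that reached 1 TPM in 3 or more libraries were fitted with limma 3.58.1 (R 4.3.3) with a mean for each of 9 groups, variances moderated along a trend (18 residual and 3.17 prior degrees of freedom). From this fit 19 comparisons were drawn, two-sided, Benjamini-Hochberg adjusted over all genes tested, called at adjusted p < 0.05. The test was checked on simulated data for a lone comparison, with independent noise and few changed genes. That setting is simpler than these data, so the check does not cover effects shared between libraries or wide change. IRT1 was left out of tests of lines against wild type and of interactions, and, after the results were seen, of those between temperatures, where the plan had counted all 10 members.

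Members are named throughout, and from each of 7 lists (87 genes, 82 tested) at most 4 called genes with the largest difference per comparison. Members and lists were chosen with earlier results of these data known. Alternatives were pseudocounts of 0.1 and 5 TPM, no filter and a filter at 5 TPM, median-of-ratios and quantile scaling, a replicate block, fits restricted to the compared groups, the root score as covariate, and each library left out. Promoters came from RefSeq TAIR10.1 by locus tag. Tables and figures used Python 3.11.15, pandas 2.3.3, NumPy 2.4.6, SciPy 1.17.1 and matplotlib 3.10.9.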

Additional observations from a re-analysis of the deposited data

Results flagged for a closer look

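For 8 member results the difference of a line from wild type was itself different between temperatures, by the limma interaction test. In the S364P line at 22 against 16 °C these were FRO2 at -3.68, FIT at -1.46, bHLH38 at -1.71, bHLH39 at -1.40 and FER1 at 1.48 on the log2(TPM + 1) scale. In the same line at 29 against 22 °C it was IMA1, at 1.23, which did not pass when any of 9 of the 12 libraries was left out. In the insertion line at 22 against 16 °C these were FRO2 at -3.65 and FER1 at 1.16. Since the labels list a time of day beside each temperature, a change with temperature and a change with time of day cannot be told apart. Groups of 3 are too small for a search for outlying libraries.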

How the results depend on the processing

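No member difference changed sign past the threshold under any alternative run. Counts of members called moved by over 1.5 times as follows, and the cause was not tested. Counts between temperatures include IRT1 here. Without it they were 9, 8 and 5 at 22 against 16 °C and 4, 2 and 3 at 29 against 22 °C in the S364P line, the insertion line and wild type, a choice made after seeing the data. At 29 °C, the S364P line against wild type (6 called) had 2 called with the root score not centred. For the insertion line against wild type at 16 °C (1 called), 0 were called with a pseudocount of 0.1 TPM or without a filter, and 2 with a pseudocount of 5 TPM, quantile scaling or the root score not centred. At 22 °C (7) the groups compared alone gave 4, and at 29 °C (4) they gave 1, where the root score not centred gave 7. Between the lines at 16 °C (1), the groups alone and the replicate block gave 0. At 22 °C (1), a pseudocount of 5 TPM, the groups alone and the root score not centred gave 0. At 29 °C (0) the root score centred within groups gave 1. For the S364P line at 29 against 22 °C (4) a pseudocount of 5 TPM gave 2. For the insertion line at 22 against 16 °C (9) the replicate block gave 5, and at 29 against 22 °C (2) a pseudocount of 5 TPM gave 1 and quantile scaling 0. For wild type at 22 against 16 °C (5) a pseudocount of 0.1 TPM gave 3 and the groups alone 2. At 29 against 22 °C (4) a pseudocount of 0.1 TPM and no filter gave 2, and the groups alone 0. Among interactions, the S364P line at 22 against 16 °C (5) had 3 with a pseudocount of 5 TPM and 2 with the root score not centred. At 29 against 22 °C (1) a pseudocount of 5 TPM, the groups alone and the replicate block gave 0. The insertion line had 1 under the replicate block at 22 against 16 °C (2). At 29 against 22 °C (0) it had 1 with a pseudocount of 5 TPM and 2 with the root score centred.

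Leaving out each library in turn gave these ranges of members called. Against wild type they were 0 to 0, 7 to 9 and 2 to 6 in the S364P line at 16, 22 and 29 °C, and 0 to 1, 3 to 8 and 1 to 6 in the insertion line. Between the lines the range was 0 to 1 at each temperature. Counted without IRT1, they were 9 to 9 in the S364P line, 8 to 9 in the insertion line and 2 to 5 in wild type for 22 against 16 °C. Also without IRT1, they were 2 to 5, 0 to 2 and 1 to 2 for 29 against 22 °C, in the same order. Interactions ranged from 2 to 8 and 0 to 2 in the S364P line and from 2 to 4 and 0 to 2 in the insertion line, at 22 against 16 °C and 29 against 22 °C.

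Taken over all genes tested, same-numbered libraries of the groups compared did not deviate together. Over 39 such pairs the correlation of deviations from group means was -0.234 to 0.263, 8 exceeded 0.1 and in 0 comparisons did every pair. Over all genes the numbers are therefore not read as pairing, but the members were not checked apart. IRT1 and FRO2 were highest in replicate 1 and lowest in replicate 2 of wild type and of the S364P line at 22 and 29 °C. The insertion line did not keep this order. What a call lost under the block means for the members was not tested. Median-of-ratios scaling moved the median of all genes at 29 against 22 °C from 0.22 to 0.02 in the S364P line. It changed the all-gene split of higher and lower calls at 29 °C from 5252 and 2935 to 3939 and 3783 in the S364P line, and from 5302 and 2887 to 3410 and 3851 in the insertion line. Of 1881 single-member differences under alternatives other than leaving out a library, 1737 were counted as unchanged. For tested differences this means the same sign and the same side of the threshold. For IRT1 against wild type and in interactions, which had no test, it means a shift below a limit set from its SE. Depth behind TPM is unknown, which limits what can be said of the members below 1 TPM.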
